A study of Mus musculus with 18 samples.

Results

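The genes described here are the nuclear genes of oxidative phosphorylation, taken as protein-coding genes by symbol: Ndufa, Ndufb, Ndufc, Ndufs, Ndufv, Uqcr, Cox4i, Cox5, Cox6, Cox7, Cox8 and Atp5 genes, with Sdha to Sdhd and Cyc1. Pseudogenes and the Ndufaf assembly factors were left out. The rule gave 86 of the 50689 features of the count table. By complex these were 38 genes of complex I, 4 of complex II, 9 of complex III, 18 of complex IV and 17 of complex V.

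RNA was sequenced from satellite cells of the tibialis anterior of C57BL6 mice, grown on matrigel in growth medium, in 9 control and 9 scKO libraries. Satellite cells are the stem cells of skeletal muscle. Control cells were Hoxa10f/f, with Cre target sites in both copies of the homeobox gene Hoxa10. The scKO cells were Pax7-CreERT2/+;Hoxa10f/f, with a tamoxifen-inducible Cre driven by Pax7, and were given 4-hydroxytamoxifen at 1 µM over 2 days. Both groups carry the floxed alleles. The labels mention the drug for scKO alone, so the Cre, the drug and the loss of Hoxa10 differ together and cannot be told apart. Whether libraries are separate animals or cultures is not stated, so p-values measure the spread between these samples, which may be technical. The RNA is of whole cultures, where fewer cells of a type and less RNA per cell cannot be told apart.

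Oxidative phosphorylation takes electrons from NADH at complex I and from succinate at complex II, passes them through complex III and cytochrome c to oxygen at complex IV, and uses the resulting proton gradient for ATP synthesis at complex V. Mitochondrial DNA encodes a few central subunits, and the nucleus encodes all others, including all of complex II. Several complex IV subunits have paired genes, with one isoform found mainly in striated muscle and brown fat and the other in most tissues.

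The libraries fell into 2 depth classes, and each class was fitted on its own. Control 1 and 2 and scKO 6, 7 and 9 held 4346150 to 5986128 counts and are called deep, and the other 7 control and 6 scKO libraries held 420197 to 968559 and are called shallow. No count in the table exceeds the number of different tags of 6 bases, which is taken as the ceiling of the UMIs, the random tags that count molecules. The 86 genes took from 1.26% to 1.66% of the counts of a shallow library, and from 1.83% to 2.06% of a deep one. In a deep library 22 of them exceeded the midpoint between 0 and that ceiling, and in a shallow one 0 did. The 13 subunits of mitochondrial DNA took from 2.16% to 3.08% of a shallow library and from 0.707% to 0.882% of a deep one. The deep share is limited by the ceiling, where mt-Nd1 and mt-Nd4 stood. Hoxa10 was lower in scKO in both classes, with a log2 fold change of -3.22 (SE 0.43; adjusted p = 0.00115 by edgeR) in shallow and -2.28 (SE 0.17; adjusted p = 3.17e-05 by edgeR) in deep libraries, and no scKO library reached the lowest control of its class. Of 8 satellite cell and myoblast markers, none was at 0 throughout either class. Among the shallow libraries, control 7, 8 and 9 and scKO 1 stood apart, and values without these 4 are given where they differ.

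Of the 86 genes, 83 passed the filter on low counts in deep and 71 in shallow libraries. Cox7b2 and Cox8c, isoforms known mainly from testis, had 0 counts in every library, below the floor of 3 counts that corresponds to 0.501 to 0.690 CPM (counts scaled to a common library size) in deep libraries. Cox4i2, an isoform induced by low oxygen, had 3 to 6 counts in each deep library and was not tested.

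In deep libraries most of the genes were slightly higher in scKO, and a few changed by more. The log2 fold change, scKO over control, was positive for 70 of 83 genes with a median of 0.16, beside a median of -0.00 and 49.8% positive over all 13136 genes tested. Levels here and below are CPM on TMM-scaled totals, except where stated. By edgeR's quasi-likelihood test with Benjamini-Hochberg adjustment at 0.05, 12 genes rose and 0 fell. That is 14.5% of the genes tested, against 7.31% of all genes called higher and 7.03% called lower. In 43 of 83 genes (51.8%) every scKO library lay above both controls, against 23.1% of all genes. In 0 of 83 did every scKO library lie below both, against 22.4% of all genes. Leaving out scKO 7 reduced the 12 calls to 5, namely Atp5s, Cox6a2, Cox7a1, Cox8b and Ndufa1. These 5 were called without any other single library as well. Atp5e and Ndufv3 lost their call in all 5 fits that left out 1 library and Cox7a2l in 4, with adjusted p by edgeR up to 0.134, 0.158 and 0.219. Ndufa11 and Uqcr11 also lost theirs without control 1, and Ndufa6 and Ndufb11 without control 2. Without control 2, which leaves 1 control, Atp5g3 and Ndufa12 were called lower, each at -0.32 on the log2 scale. Their highest deep counts, 3849 and 3325, lay past the midpoint towards the ceiling. With all deep libraries and a correction for UMI collisions, described below, they were at 0.03 and -0.04. DESeq2 did not call Cox7a2l, Ndufv3 and Uqcr11.

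In the 13 shallow libraries the same genes were spread around 0. The log2 fold change was positive for 39 of 71 genes with a median of 0.03, beside a median of -0.02 and 45.8% positive over all 6906 genes. No gene of the 71 passed edgeR's adjusted threshold, against 0.029% of all genes called higher and 0.0145% called lower, or 3 genes (0.0434%). At an unadjusted p under 0.05 there were 3 of the 71, against 425 of the 6906. DESeq2 called 0 of the 71, against 6 genes in all. Without control 7, 8 and 9 and scKO 1 the median was -0.0047 and 47.9% of the 71 were positive. In none did the groups separate, against 0.203% of all genes with every scKO library above every control and 0.101% with every one below.

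**Figure D1:**
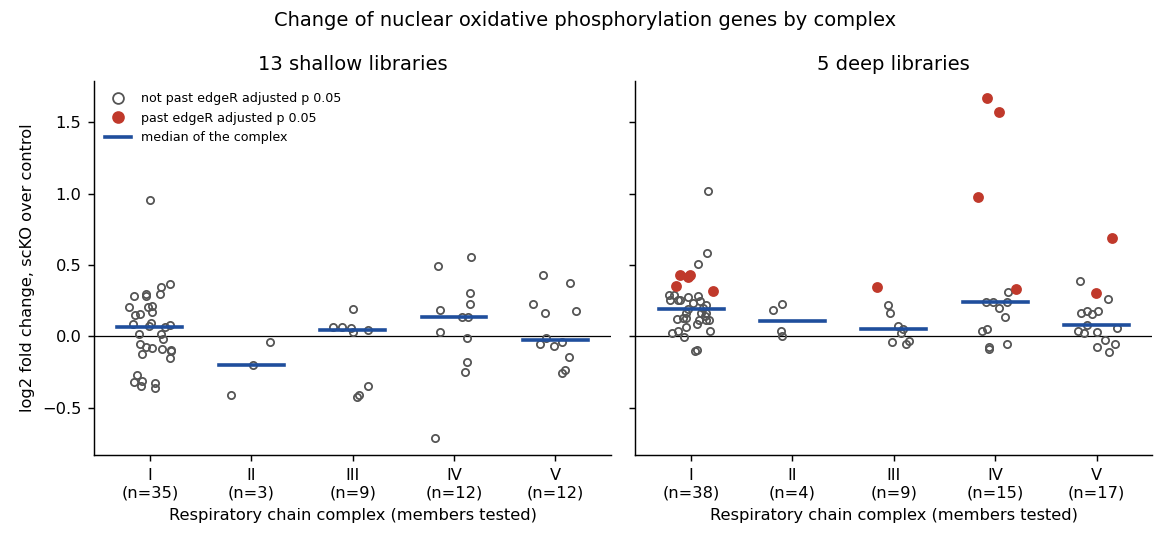
Each circle is 1 gene, placed by complex, with its log2 fold change of scKO over control in shallow (left) and deep (right) libraries. Filled circles passed edgeR's adjusted threshold of 0.05, blue lines are medians and n is the number of genes tested. The deep medians of all 5 complexes lie above 0, from 0.05 to 0.24, while the shallow medians lie between -0.20 and 0.13. Counts are as deposited, without the correction for UMI collisions.

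By complex, the deep median was highest for complex IV at 0.24, followed by complex I at 0.19, complex II at 0.11, complex V at 0.08 and complex III at 0.05. This order is of counts as deposited, which the ceiling compresses. After the correction for UMI collisions described below, complexes III and V were both at 0.19, and complex II was lowest at 0.14. The count of positive genes was 35 of 38 for complex I, 4 of 4 for complex II, 6 of 9 for complex III, 12 of 15 for complex IV and 13 of 17 for complex V. The shallow medians were 0.07 for complex I, -0.20 for complex II, 0.05 for complex III, 0.13 for complex IV and -0.02 for complex V. Without control 7, 8 and 9 and scKO 1, complex I was at 0.00052, complex III at -0.059 and complex IV at 0.037. Leaving out 1 library also turned the sign, to -0.0068 for complex I (without scKO 3), -0.022 for complex III (without control 8) and 0.041 for complex V (without control 5). The deep complex III median rests on single controls, at -0.05 without control 2 and 0.17 without control 1, and that of complex V was 0.17 without control 1.

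The mean log2 CPM of a complex's genes was also taken in each library from counts as deposited, relative to the control mean of the class. In the deep class, complex IV stood 0.36 to 0.41 above the control mean in the 3 scKO libraries, with the 2 controls within 0.05 of it. Its 3 muscle isoforms stood 1.30 to 1.41 above, while its 9 genes outside those isoforms and their counterparts stood 0.15 to 0.21 above, with controls within 0.09. Complex I stood 0.17 to 0.24 above, with controls within 0.03. Complex II stood 0.10 to 0.13 above and complex V 0.12 to 0.16 above, and neither overlapped its controls. Complex III did overlap, at 0.04 to 0.13 in scKO with controls at -0.09 and 0.09. In the shallow class the groups overlapped for every complex. Complex IV, for example, ran from -0.04 to 0.35 in scKO and from -0.24 to 0.24 in control, and complex II from -0.50 to 0.12 and from -0.51 to 0.22.

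**Figure D2:**
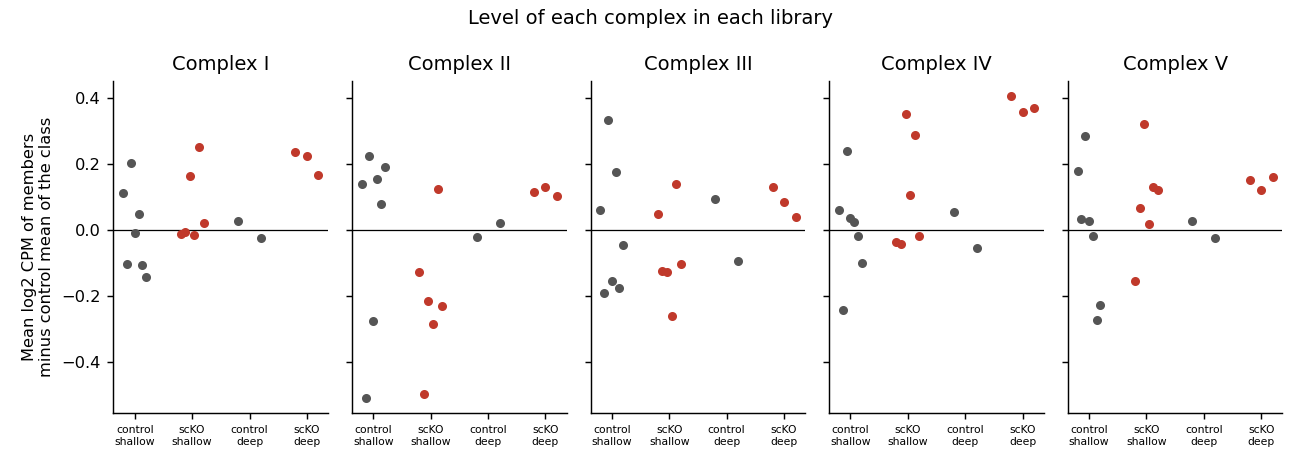
Each point is 1 library, with the mean log2 CPM of a complex's tested genes minus the mean of the control libraries of the same depth class. Deep scKO libraries lie above both deep controls for complexes I, II, IV and V and overlap them for complex III, and shallow groups overlap in all 5 panels.

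Complex I passes electrons from NADH through a peripheral arm to ubiquinone and pumps protons in its membrane arm. Of its 38 genes, 5 rose in deep libraries, against 7.31% of all genes called higher. All 5 were accessory subunits outside the catalytic core, where 31 of the 38 genes lie. The deep median was 0.20 outside the core and 0.17 within it. Ndufa1, a small subunit of the membrane arm encoded on the X chromosome, was at 195 and 209 CPM in the deep controls and 269, 282 and 268 CPM in scKO. Its log2 fold change was 0.43 (SE 0.09; adjusted p = 0.00681 by edgeR). All 3 scKO libraries lay above both controls. Ndufa6, an accessory subunit of the LYR protein family, was at 154 and 128 CPM in control and 188, 195 and 185 CPM in scKO (log2 fold change 0.43, SE 0.10; adjusted p = 0.011 by edgeR). Ndufa11, of the membrane arm, was at 75.2 and 86.0 CPM in control and 104, 114 and 105 CPM in scKO (log2 fold change 0.42, SE 0.10; adjusted p = 0.0166 by edgeR). For both, too, the scKO libraries were all higher. Ndufb11 and Ndufv3 rose by 0.35 and 0.32 on the log2 scale, with edgeR adjusted p of 0.0206 and 0.047. Ndufc1, just outside the threshold, had a log2 fold change of 0.29 (adjusted p = 0.0565 by edgeR).

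In shallow libraries Ndufa1 was close to the counting limit, at 0 to 13 counts per control library and 6 to 18 per scKO library. Its levels had a lowest, median and highest value of 0, 7.41 and 16.5 CPM in control and 8.19, 20.3 and 26.4 CPM in scKO. The ranges overlapped, and the log2 fold change was 0.96 (SE 0.37; adjusted p = 0.729 by edgeR). Ndufa11 ran from 60.0 to 176 CPM in shallow control and from 56.2 to 179 CPM in shallow scKO, with a log2 fold change of -0.32 (SE 0.30). Ndufa9, an accessory subunit of the peripheral arm, had a shallow log2 fold change of -0.31 (SE 0.16) and a deep one of 0.22 (SE 0.10), and passed edgeR's adjusted threshold in neither.

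The 7 nuclear core subunits of complex I bind the flavin and the iron-sulfur clusters or form the ubiquinone site. They had 0 calls in either class with all of its libraries and counts as deposited. Their deep log2 fold changes ran from -0.01 for Ndufs8 to 0.51 for Ndufs3, with a median of 0.17. The value of Ndufs3 rests on 1 control, and without control 2 it was 1.18 (SE 0.35; adjusted p = 0.0425 by edgeR). Ndufs1, the largest of them, was at 479 and 428 CPM in deep control and 527, 484 and 517 CPM in scKO (log2 fold change 0.17, SE 0.11). All 3 scKO values lay above both controls, by little. The highest deep count of Ndufs1, 2908, lay past the midpoint towards the ceiling. After the correction for UMI collisions it was called, at 0.36 (SE 0.09; adjusted p = 0.02 by edgeR). Ndufv1, which binds the NADH and the flavin, was at 84.4 and 76.2 CPM in control and 104, 83.6 and 94.2 CPM in scKO (0.23, SE 0.11), and there the groups overlapped. Ndufs7 and Ndufv2 had deep log2 fold changes of 0.14 and 0.25. The shallow values of the 6 tested core subunits ran from -0.36 for Ndufv1 to 0.21 for Ndufs1, with 4 of 6 positive. Of an isoform pair that responds to low oxygen, Ndufa4, which is also found with complex IV, had a deep log2 fold change of 0.12 (SE 0.11). Ndufa4l2, at 1.21 and 1.14 CPM in control and 2.90, 2.19 and 2.09 CPM in scKO, had one of 1.02 (SE 0.46; adjusted p = 0.153 by edgeR).

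Complex II is the succinate dehydrogenase that also works in the tricarboxylic acid cycle. None of its 4 genes passed the test, beside 7.31% of all genes called higher and 7.03% called lower in deep libraries. Sdha, the flavoprotein, was at 288 and 253 CPM in deep control and 253, 296 and 282 CPM in scKO, with overlapping groups and a log2 fold change of 0.04 (SE 0.10). Sdhb, the iron-sulfur subunit, was as close, at 0.01 (SE 0.09) on the log2 scale. The membrane anchors Sdhc and Sdhd had deep values of 0.19 (SE 0.10) and 0.23 (SE 0.12). For both, every scKO library lay above both controls, as it did for 23.1% of all genes. In shallow libraries the 3 tested genes had negative log2 fold changes, at -0.04 for Sdha, -0.41 (SE 0.22) for Sdhb and -0.20 (SE 0.20) for Sdhc, and the groups overlapped.

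Complex III moves electrons from ubiquinol to cytochrome c. Uqcr11, its small accessory subunit, was the 1 gene of 9 that rose in deep libraries, against 7.31% of all genes called higher. It was at 100 and 108 CPM in control and 134, 138 and 126 CPM in scKO (log2 fold change 0.35, SE 0.10; adjusted p = 0.0262 by edgeR). In shallow libraries its log2 fold change was -0.41 (SE 0.22; adjusted p = 0.822 by edgeR), with 50.7 to 140 CPM in control and 48.3 to 86.0 CPM in scKO. Cyc1, the cytochrome c1, and Uqcrfs1, the Rieske iron-sulfur protein, carry the electrons. Their deep log2 fold changes were -0.05 (SE 0.10) and -0.04 (SE 0.14), and their shallow ones 0.06 (SE 0.18) and 0.05 (SE 0.13). The core protein Uqcrc1 had values of 0.17 (SE 0.09) in deep and -0.42 (SE 0.36) in shallow libraries, and Uqcrb 0.22 and -0.34.

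Complex IV, cytochrome c oxidase, held the 3 largest changes that passed the test. They were in Cox6a2, Cox7a1 and Cox8b, the isoforms of striated muscle, and not called in their widely expressed counterparts Cox6a1, Cox7a2 and Cox8a. The promoters of these genes are shown first, as far as the RefSeq table holds them. Each runs from 250 bases before to 50 bases after the start (GRCm38.p6), 5′ to 3′ on the gene's own strand. Capitals mark matches, on either strand, to the palindromic motif of Nrf1, a regulator of respiratory genes, CCGGAAG (the core site of ETS factors such as Gabpa) or CAGCTG (an E-box of myogenic factors, added after the values were seen). The muscle isoforms are Cox7a1 at chr7:30183921-30184220 on the plus strand and Cox8b at chr7:140900397-140900696 on the minus strand.
Cox7a1: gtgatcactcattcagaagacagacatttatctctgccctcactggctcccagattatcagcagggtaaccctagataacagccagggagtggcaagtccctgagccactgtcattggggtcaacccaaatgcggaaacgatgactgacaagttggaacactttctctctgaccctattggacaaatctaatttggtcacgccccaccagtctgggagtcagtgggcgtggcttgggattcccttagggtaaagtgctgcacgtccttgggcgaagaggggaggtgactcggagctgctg
Cox8b: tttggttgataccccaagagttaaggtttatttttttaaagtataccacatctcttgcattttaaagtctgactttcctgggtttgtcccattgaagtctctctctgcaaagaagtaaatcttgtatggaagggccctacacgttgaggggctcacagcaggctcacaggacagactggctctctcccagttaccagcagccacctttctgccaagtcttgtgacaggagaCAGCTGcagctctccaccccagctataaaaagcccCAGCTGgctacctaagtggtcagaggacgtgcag
The counterparts are Cox7a2 at chr9:79759804-79760103, Cox8a at chr19:7217567-7217866 and Cox6a1 at chr5:115348909-115349208, all on the minus strand.
Cox7a2: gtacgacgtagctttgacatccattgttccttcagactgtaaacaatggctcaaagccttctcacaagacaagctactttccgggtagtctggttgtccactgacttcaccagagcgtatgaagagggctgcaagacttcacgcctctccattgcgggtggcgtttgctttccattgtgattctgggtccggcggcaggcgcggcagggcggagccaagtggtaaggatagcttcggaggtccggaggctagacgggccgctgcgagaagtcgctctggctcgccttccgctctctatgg
Cox8a: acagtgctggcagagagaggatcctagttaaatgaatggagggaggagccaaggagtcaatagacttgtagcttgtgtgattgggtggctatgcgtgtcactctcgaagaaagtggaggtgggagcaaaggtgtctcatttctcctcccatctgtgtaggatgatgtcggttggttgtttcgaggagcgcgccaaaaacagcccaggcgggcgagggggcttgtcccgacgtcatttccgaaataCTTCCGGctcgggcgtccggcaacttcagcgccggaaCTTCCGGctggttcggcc
Cox6a1: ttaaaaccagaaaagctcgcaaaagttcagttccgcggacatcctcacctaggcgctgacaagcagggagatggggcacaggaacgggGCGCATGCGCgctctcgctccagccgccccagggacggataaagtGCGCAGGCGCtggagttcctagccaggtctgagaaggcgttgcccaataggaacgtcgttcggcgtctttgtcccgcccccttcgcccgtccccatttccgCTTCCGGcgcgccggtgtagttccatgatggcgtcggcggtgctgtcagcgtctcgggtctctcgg

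Cox8b had 2 CAGCTG matches and neither of the other motifs, and Cox7a1 and Cox7a2 had no match to any of them. Cox8a had 2 CCGGAAG matches, while Cox6a1 had 2 of the Nrf1 motif and 1 of CCGGAAG. Among the 69 of 86 genes found in the table, the Nrf1 motif was in 17 promoters (24.6%, against 5.19% of 27025 genes) and CCGGAAG in 16 (23.2%, against 9.93%). CAGCTG was in 6 (8.70%, against 18.3%). In deep libraries the median log2 fold change was 0.16 with and 0.20 without the Nrf1 motif, 0.12 and 0.19 for CCGGAAG, and 0.21 and 0.17 for CAGCTG. A match is a description of the sequence and not a site of binding.

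Cox8b, the muscle isoform of subunit 8, counted 144 and 200 UMIs in the deep controls and 532, 530 and 603 in scKO. That is 34.7 and 32.6 CPM against 96.4, 89.2 and 114 CPM, so the lowest scKO library lay far above the higher control. The log2 fold change was 1.57 (SE 0.13; adjusted p = 4.21e-05 by edgeR). Its counterpart Cox8a was at 523 and 475 CPM in control and 484, 470 and 492 CPM in scKO, with overlapping groups and a log2 fold change of -0.05 (SE 0.11; adjusted p = 0.803 by edgeR).

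Cox7a1 counted 27 and 52 UMIs in control and 132, 144 and 130 in scKO. The levels were 6.51 and 8.47 CPM against 23.9, 24.2 and 24.7 CPM, and the groups did not overlap. The log2 fold change was 1.67 (SE 0.19; adjusted p = 0.000217 by edgeR), the largest of the 83. Cox7a2 was at 99.1 and 91.0 CPM in control and 108, 113 and 106 CPM in scKO, all 3 above both controls, with 0.20 (SE 0.10; adjusted p = 0.189 by edgeR).

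Cox6a2 counted 581 and 953 UMIs in control and 1840, 1684 and 1340 in scKO, or 140 and 155 CPM against 334, 283 and 254 CPM. All scKO libraries were higher, and the log2 fold change was 0.97 (SE 0.12; adjusted p = 0.0004 by edgeR). Cox6a1 was at 517 and 443 CPM in control and 429, 464 and 465 CPM in scKO, with overlapping groups and a log2 fold change of -0.08 (SE 0.11; adjusted p = 0.676 by edgeR). Taken as one level, the 3 muscle isoforms stood 1.30 to 1.41 above the control mean on the log2 scale in the deep scKO libraries, with the controls within 0.07 of it. The 3 counterparts stood between -0.01 and 0.04 in scKO, with the controls within 0.08.

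**Figure D3:**
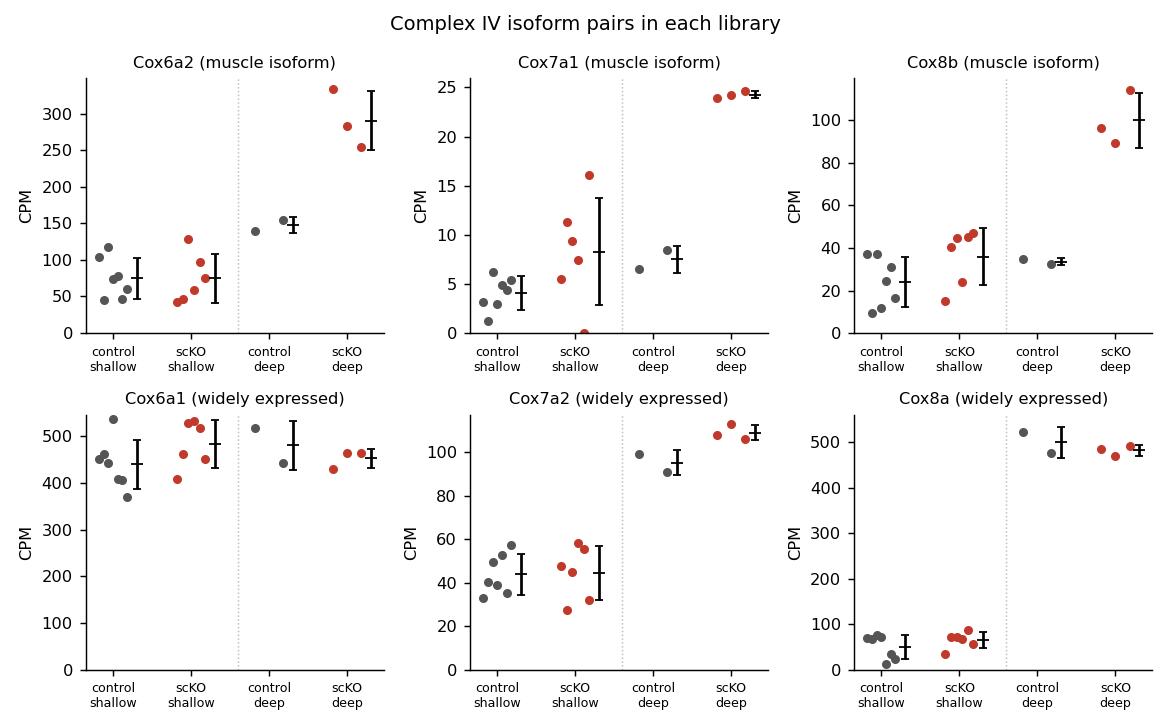
Each point is the CPM of 1 library, grouped by genotype and depth class, for the muscle isoforms of complex IV (top) and their widely expressed counterparts (bottom), and bars give the mean and SD. CPM of the 2 classes are scaled within each class. In deep libraries the scKO points of Cox6a2, Cox7a1 and Cox8b lie above both controls, while those of Cox6a1 and Cox8a overlap them and those of Cox7a2 lie slightly above.

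In shallow libraries the muscle isoforms did not separate the groups. Cox8b had a lowest, median and highest level of 9.44, 24.7 and 37.2 CPM in control and 15.0, 42.6 and 46.9 CPM in scKO, with a log2 fold change of 0.56 (SE 0.32; adjusted p = 0.822 by edgeR). Cox6a2 ran from 44.8 to 117 CPM with a median of 73.5 in control and from 42.3 to 129 CPM with a median of 66.5 in scKO (-0.01, SE 0.28). Cox7a1 had 0 to 11 counts per library and was not tested. Cox8a had a shallow value of 0.30 (SE 0.32), Cox6a1 of 0.13 (SE 0.13) and Cox7a2 of 0.03 (SE 0.21).

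Some genes of muscle differentiation rose beside the muscle isoforms in deep libraries, and their part in the result was not tested. Of 14 listed genes, 8 were positive and 6 negative, and 4 rose past edgeR's adjusted threshold, against 7.31% of all genes called higher. These were Myh8, a perinatal myosin (log2 fold change 0.89), Ckm, the muscle creatine kinase (0.77), Mymx, the fusion factor myomixer (0.76), and Myh4, a fast myosin (1.91). Mylpf, Tnnt3, Myl1, Acta1, Myh3 and Myog lay between 3192 and 4093 counts in the deep libraries, close to the ceiling. The list's summed level was 6066 to 8166 CPM in control and 7209 to 7848 CPM in scKO, with 0 genes at 0. Counts close to the ceiling cannot follow a change, so this sum cannot show whether the list as a whole rose. Of 8 satellite cell and myoblast genes, 7 were tested and 1 was called lower, against 7.03% of all genes. That gene was Myf5, a regulator of myoblast identity, which fell by 0.33 on the log2 scale. The list summed to 2536 to 3099 CPM in control and 2544 to 2834 CPM in scKO. Some genes of other cell types rose as well, beside 7.31% of all genes called higher. They were Abcc9 (1.19) and Myh11 (1.61) of 4 tested smooth muscle and pericyte genes and Sox10 (1.96) of 3 tested Schwann genes. Fabp4 (1.33), the 1 fat gene tested, was also called. The summed levels in control and scKO were 287 to 351 and 351 to 393 CPM for the 5 smooth muscle and pericyte genes, 9.12 to 16.1 and 28.8 to 56.7 CPM for the 4 Schwann genes, and 1.79 to 2.17 and 3.81 to 5.72 CPM for the 4 fat genes, of which 1 was at 0. Fibro-adipogenic, endothelial, leukocyte and tendon markers had 0 calls in deep libraries, and no marker gene of any list passed the test in shallow ones. There the 3 tested smooth muscle and pericyte genes were positive, the 1 tested Schwann gene was at -1.35 and no fat gene was tested.

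Of the other complex IV genes, Cox7a2l rose in deep libraries. Its product is described as joining complexes III and IV into supercomplexes, and whether it does so in this mouse strain was not tested. Cox7a2l was at 117 and 102 CPM in control and 144, 139 and 132 CPM in scKO (log2 fold change 0.33, SE 0.10; adjusted p = 0.0369 by edgeR). In shallow libraries it had the lowest log2 fold change of the 71 genes, -0.71 (SE 0.27; adjusted p = 0.729 by edgeR), with a median of 140 CPM in control and 73.6 in scKO and overlapping ranges. Cox7c, a small subunit just outside the threshold, was at 72.6 and 71.2 CPM in deep control and 86.1, 93.0 and 88.7 CPM in scKO (0.31, edgeR adjusted p = 0.051). Cox5a, a subunit on the matrix side, had -0.08 (SE 0.13) in deep and 0.49 (SE 0.22; adjusted p = 0.8 by edgeR) in shallow libraries. Cox4i1, the common form of the regulatory subunit, had 0.14 (SE 0.11) in deep and -0.25 (SE 0.33) in shallow libraries. Cox6b1 had 0.04 (SE 0.13) and its testis isoform Cox6b2 0.24 (SE 0.19) in deep libraries.

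Complex V is the ATP synthase, with a catalytic F1 part turned by a ring in the membrane. Atp5s, which encodes coupling factor B, a protein that associates with the enzyme, was at 18.8 and 17.4 CPM in deep control and 30.6, 27.9 and 29.0 CPM in scKO. The groups did not overlap, and the log2 fold change was 0.69 (SE 0.15; adjusted p = 0.00805 by edgeR). In shallow libraries it had 2 to 7 counts and was not tested. Atp5e, the epsilon subunit of F1, was at 229 and 227 CPM in deep control and 285, 285 and 274 CPM in scKO (0.31, SE 0.09; adjusted p = 0.0359 by edgeR). Its shallow value was -0.23 (SE 0.16; adjusted p = 0.824 by edgeR). The other 4 subunits of F1 (Atp5a1, Atp5b, Atp5c1 and Atp5d, the alpha to delta subunits) had deep log2 fold changes of -0.05, -0.02, 0.03 and 0.04, and none was called.

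Atp5g1, Atp5g2 and Atp5g3 encode the same mature subunit of the membrane ring. Atp5g3 was at 851 and 627 CPM in deep control and 692, 644 and 721 CPM in scKO (-0.11, SE 0.14), and Atp5g1 at 8.68 and 8.96 against 12.0, 10.6 and 12.2 CPM (0.39, SE 0.20; adjusted p = 0.229 by edgeR). Atp5g2 had -0.07 (SE 0.44). In shallow libraries Atp5f1, of the peripheral stalk, had the smallest p of the stalk and membrane genes, with 0.37 (SE 0.26; adjusted p = 0.824 by edgeR).

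Abundant genes in deep libraries lay near the ceiling of the counts, which compresses differences between groups. Of the 22 genes above the midpoint of the count range, 12 were positive, with a median of 0.02 and 0 calls, and of the 61 others 58 were positive, with a median of 0.22 and all 12 calls. Counts were therefore also corrected for UMI collisions, assuming tags of 6 bases. The correction gave 16 calls, all higher and including the 12, against 2109 of 13136 genes in all, of which 1075 were higher. Positive genes numbered 76 of 83 in place of 70, and the median was 0.22. The 4 added calls were Ndufs1 (log2 fold change 0.36), Cox7b (0.38), Ndufa5 and Ndufs4. Cox6a1 and Cox8a stayed at -0.06 and -0.02, and the median of complex III moved to 0.19.

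**Figure D4:**
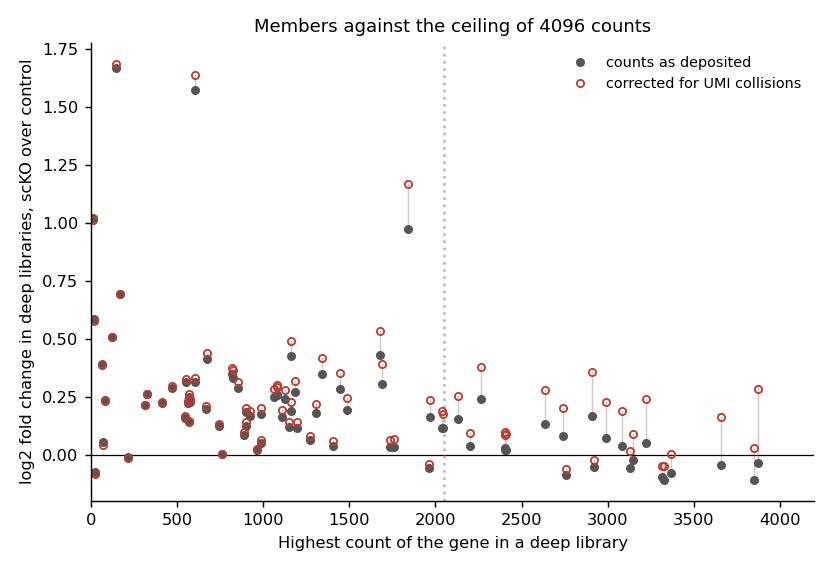
Each gene is placed by its highest count in a deep library (x axis) and its log2 fold change of scKO over control in deep libraries (y axis), as deposited (filled) and corrected for UMI collisions (open), joined by a line. The dotted line stands at the midpoint between 0 and the ceiling. The 22 genes right of it have a median of 0.02 as deposited and 0.10 after correction.

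A fit of all 18 libraries with the depth class as a term gave 48 of 72 positive genes and a median of 0.06, beside -0.01 over all genes. None of the 72 passed edgeR's adjusted threshold, against 0.679% of 7662 genes. DESeq2 called 2 of the 72, against 390 genes in all. At an unadjusted edgeR p under 0.05 there were 3 of the 72, against 910 of the 7662. Those 3 were Cox8b (log2 fold change 1.01, SE 0.25; adjusted p = 0.0602 by edgeR), Ndufa1 (0.67, SE 0.22; adjusted p = 0.181 by edgeR) and Ndufs1 (0.21, SE 0.10; adjusted p = 0.375 by edgeR). Cox8b depended on single libraries. Leaving out control 3, 5 or 7 or scKO 1 or 4 brought its edgeR adjusted p under 0.05, and over all single libraries left out it ran from 0.00745 to 0.264. Without control 7, 8 and 9 and scKO 1 together, edgeR called Cox8b (1.24, adjusted p = 0.00261) and Ndufa1 (0.52, adjusted p = 0.0189). Its calls over all genes then numbered 617, against 52 with all 18 libraries, so the 2 calls are no result about these genes as a set.

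Whether the change differs between the classes was tested as an interaction of group and depth class. edgeR called 0 of 72 genes and 0 of 7662 in all, with a lowest adjusted p of 0.726 among the 72. At an unadjusted p under 0.05 there were 6, all with the higher value in deep libraries, namely Ndufa9, Cox7a2l, Uqcr11, Cox8b, Cox6a2 and Atp5e. The number over all genes at that unadjusted p was not taken. The deep value exceeded the shallow one for 47 of 72 genes, with a median difference of 0.14, beside 0.01 over all genes. The difference for Cox8b was 1.02 (SE 0.44) and that for Cox6a2 1.00. The calls in deep libraries are therefore not shown to differ from the shallow values.

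The levels of the genes themselves differed between the classes, compared here as CPM on the raw total of each library, without TMM scaling. Over the 71 genes tested in shallow libraries, the ratio of deep to shallow control levels had a median of 1.68, against 1.40 over all genes, and 31 of 71 exceeded 2, against 26.6% of all genes. Ndufa1 had the highest ratio, at 200 CPM in deep and 8.80 CPM in shallow controls, a ratio of 22.8. Cox8a followed at 9.82. Ndufv1 had the lowest, at 79.4 against 243 CPM, a ratio of 0.326. Within the shallow class, control 7, 8 and 9 and scKO 1 were all below the other 9 libraries in 24 of 71 genes, against 10.8% of all genes, and all above them in 5, against 8.43%. Atp5c1, the gamma subunit of F1, was at 38.1 to 54.7 CPM in those 4 and at 123 to 196 CPM in the others, and Ndufv1 at 331 to 461 against 122 to 160 CPM. Both genotypes are among the 4. The part of these levels in the comparison of groups was not tested beyond the values without them.

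Of the 13 subunits encoded by mitochondrial DNA, 1 was positive in deep libraries, with a median of -0.17 and 0 calls. mt-Nd1 and mt-Nd4 stood at the ceiling in all 5 deep libraries, so their CPM followed the scaled library totals alone. The deep signs and median of this list are therefore not read as a change. In shallow libraries 8 of 12 were positive with a median of 0.05 and 0 calls. mt-Co1, a catalytic subunit of complex IV, had a shallow value of 0.29 (SE 0.17), and mt-Nd3, of complex I, one of 0.35 (SE 0.22).

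Among 42 tested assembly factors, 32 were positive in deep libraries with a median of 0.11, against 49.8% positive over all genes. By edgeR's adjusted threshold 5 rose and 1 fell, against 7.31% of all genes called higher and 7.03% called lower. Those that rose were Ndufaf3 of complex I (log2 fold change 0.80), Lyrm7 (0.64) and Uqcc1 (0.51) of complex III, Sdhaf4 of complex II (0.44) and Cox19 of complex IV (0.39). The copper chaperone Sco2 fell by 0.75 on the log2 scale. In shallow libraries 16 of 27 were positive with 0 calls.

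Regulators of mitochondrial gene expression had 6 of 16 positive in deep libraries, with a median of -0.15. Past edgeR's adjusted threshold 1 of the 16 rose and 1 fell, against 7.31% of all genes called higher and 7.03% called lower. Neither these calls nor those of the marker genes and assembly factors above were checked with libraries left out. Ppargc1a, a coactivator of mitochondrial biogenesis, rose by 0.57 on the log2 scale, at a mean of 16.7 CPM (SD 4.2, n = 2) in control cells and of 25.2 CPM (SD 2.0, n = 3) in scKO cells (adjusted p = 0.0498 by edgeR). Polg, the mitochondrial DNA polymerase, fell by 0.59 (adjusted p = 0.00869 by edgeR). Tricarboxylic acid cycle genes were 7 of 14 positive with a median of 0.00, and Idh2 had -0.31 (adjusted p = 0.056 by edgeR). The mitochondrial ribosome had 36 of 76 positive with a median of -0.01. Carriers, exchangers and the ATPase inhibitor had 3 of 8 positive. Slc25a5, an ADP/ATP carrier, had -0.26, and the inhibitor Atpif1 -0.31 (adjusted p = 0.058 by edgeR). These 3 lists had 0 calls in deep libraries, and all of the lists of this and the previous paragraph had 0 calls in shallow ones.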

How the data were processed

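The deposited table holds raw UMI counts, 1 library per column; that they count UMIs is given by the table's name. HISAT2, HTSeq and the rat build Rnor_6.0 are named in the submitters' processing notes, while the features are mouse Ensembl genes, used as deposited. Library kit, annotation release, use of strand and UMI length are not given in the sources used here. Symbols came from GENCODE M21, and the 313 features without one held 0.0410% of counts. Without strand, overlapping genes cannot be told apart. Many of these genes have processed pseudogenes, and how reads shared with them were counted is not given in the sources used here.

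Depth classes were split at 2000000 total counts. Each class, and all 18 libraries with the class as a term, was fitted with edgeR 4.0.16 in R 4.3.3 (filterByExpr, TMM, robust quasi-likelihood test, Benjamini-Hochberg over all genes tested, threshold 0.05). The standard error is the log2 fold change divided by the root of F. Alternatives were DESeq2 1.42.0, median-of-ratios size factors, no count filter, at least 10 counts, correction for UMI collisions, each library left out, 4 libraries left out, a replicate block and a model of the group alone. The fits were tested on simulated data. Within each group and depth class no 2 libraries were taken as duplicates, since the chi-square per gene of their counts was at least 2.05. Libraries of different depth classes were not compared in this way.

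Members and lists were chosen with earlier results of these data known. Genes named are those past the threshold in any fit, the 2 of smallest p per complex and class, the complex II genes, the core, redox and F1 subunits and the isoform sets, and in other lists those called or otherwise of smallest p. Other members named were chosen after their values were seen. A gene that this rule selects is not reported here.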

Additional observations from a re-analysis of the deposited data

Results flagged for a closer look

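Within the shallow scKO libraries, 10 genes had 1 library far from the other 5, by Dixon's criterion for a single extreme value. In all 10 that library was scKO 1. There were 86 groups of libraries examined, and chance alone gives such a mark in about 1 group in 20. Of complex I, Ndufv1 was at 496 CPM against 129 to 166 CPM in the others, Ndufa11 at 179 against 56.2 to 90.0 CPM, and Ndufs7 at 27.3 against 43.6 to 53.1 CPM. Uqcrc1 of complex III was at 128 CPM against 38.1 to 71.1. Of complex IV, Cox4i1 was at 1397 CPM against 419 to 591, and Cox6b1 at 213 against 365 to 429.

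Of complex V, Atp5a1 was at 953 CPM in scKO 1 against 658 to 728, Atp5c1 at 41.0 against 135 to 188, Atp5d at 555 against 195 to 308, and Atp5f1 at 56.0 against 135 to 160. Of the 10, scKO 1 was the highest in 6 and the lowest in 4. None of these genes was called in the shallow class with scKO 1 or without it.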

How the results depend on the processing

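Deep medians moved by more than the spread between libraries when counts were corrected for UMI collisions, to 0.22 over the 83 genes described, 0.24, 0.14, 0.19, 0.28 and 0.19 for complexes I to V. Restricted to genes of counts up to the midpoint of their range they were 0.22 over the 61 left, 0.17 for complex III, 0.32 for IV and 0.18 for V. The deep count of 12 was 9 by DESeq2, 13 without a count filter and 16 after the correction, and 5 to 10 with 1 library left out, where a lone control is assumed to vary like the scKO libraries. The genes newly called, each with 1 control left, were Ndufa13 without control 1 (log2 fold change 0.38) and 3 without control 2. Those were Ndufs3 (1.18), Atp5g3 (-0.32) and Ndufa12 (-0.32). With all deep libraries and the correction, Atp5g3 was at 0.03 and Ndufa12 at -0.04. Over all genes tested the deep calls numbered 1884, and 996 without scKO 7. With all 18 libraries the count of 0 became 2 by DESeq2, 3 without a count filter and 2 without control 7, 8 and 9 and scKO 1, and 0 or 1 with 1 library left out. The calls over all 7662 genes, 52, were 390 by DESeq2, 359 without a count filter, 22 with at least 10 counts, 617 without those 4 libraries and 1 with the group alone. The 3 shallow calls over all genes were 6 by DESeq2, 13 without a count filter and 0 without the 4 libraries, and the interaction called 30 of all genes, none of them a nuclear oxidative phosphorylation gene, without a count filter. The shallow count was 0 under each alternative run, and its median ran from -0.01 to 0.09 with 1 library left out. Leave-one-out deep medians ran from 0.13 to 0.20 over the 83 genes, 0.16 to 0.23, 0.089 to 0.13, -0.051 to 0.17, 0.18 to 0.25 and 0.086 to 0.17 for complexes I to V. No called gene changed sign, and 29 of 442 deep and 48 of 722 shallow values of genes did so without a call. With the replicate block, 0 genes were called in shallow (median 0.12) and with all libraries (median 0.06, 14 calls over all genes). Deviations of same-numbered libraries correlated at -0.07 to 0.25, so the numbers were not taken as pairs. No paired analysis was possible in the deep class alone because its control and scKO libraries share no replicate number. Counts of 3 set the floor at 3.10 to 7.14 CPM in shallow libraries.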
